A study of Homo sapiens with 12 samples.

Results

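The tripartite motif (TRIM) genes were examined in TMD8, an established human lymphoma line of the activated B cell (ABC) class, after knockdown of the transcription factor IRF4. Members were the rows of the gene count table typed as protein-coding whose name was TRIM followed directly by a digit, which gave 51 of 26318 genes. Of these, 48 had counts in both groups and 41 had enough counts to be tested. The groups were 6 libraries from TMD8 cells with a scramble short hairpin RNA (shRNA, an RNA that lowers the messenger RNA of its target), called controls, and 6 from TMD8 cells with an shRNA against IRF4. All cells therefore carried a hairpin, and pellets were taken at 24 h. Every title named TMD8, but the cell line field of the labels runs from TMD8 to TMD19 with a different name for each sample, and all were taken as TMD8 from the titles. The vector, its promoter and the number of hairpins are not stated in the labels. Library names held a number 1 or 2 of unstated meaning, and the 3 control and 3 IRF4 shRNA libraries with each number are called library series 1 and 2.

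TRIM proteins share an amino-terminal block of a RING finger, B-box zinc fingers and a coiled coil, and most act as ubiquitin ligases in which the RING finger recruits a ubiquitin-conjugating (E2) enzyme. The carboxy-terminal part differs between members and sets what each binds: SPRY domains in many antiviral members, plant homeodomain and bromodomain modules in the chromatin members of the TIF1 class, NHL repeats in others. Several members restrict viruses or tune the nucleic acid sensing pathways that switch on interferon, and part of these genes are themselves induced by interferon.

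IRF4 was lower in each IRF4 shRNA library than in any control, at 507, 608 and 716 CPM (counts scaled to library size; lowest, median and highest of 6) against 1427, 1469 and 1571 CPM. Each library held 31292641 to 38180370 counts in all. The summed level of 5 B cell markers was 4232 to 4813 CPM in controls and 5882 to 6174 CPM with IRF4 shRNA. Of 5 T cell markers 2 had a row, and they summed to 0.426 to 0.797 and 0.299 to 0.618 CPM. Of 5 monocyte or macrophage markers 3 had a row, with sums of 0.153 to 0.824 and 0.299 to 0.871 CPM. Of 3 NK cell markers only 1, KLRD1, had a row, and it was at 0. Fewer cells expressing a gene and less RNA per cell cannot be told apart in bulk RNA. The labels do not name separate cultures, so the p-values speak for the spread among these libraries, which may be technical.

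Across the family, 16 of the 41 tested members (39.0%) were higher and 8 (19.5%) lower with IRF4 shRNA, at a Benjamini-Hochberg adjusted p under 0.05 by edgeR over all genes. Among all 16437 genes tested, 24.2% were higher and 23.9% lower by the same rule, 48.2% in all. Scaled by library size alone, 20 members were higher and 6 lower. Rises of at least 2-fold were seen in 3 members, TRIM14, TRIM25 and TRIM21 (7.32%, against 5.65% of all genes), and falls of that size in TRIM2 and TRIM16L (4.88%, against 2.74%). The median log2 fold change was 0.10 over the tested members and -0.01 over all genes. The groups did not overlap in 18 members (30.8% of all genes), with every IRF4 shRNA library above every control in 13 (16.2%) and below in 5 (14.7%). The number of falls was 10 with the trend of counts with transcript GC content (the GC trend) removed and 11 without control replicates 5 and 6.

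**Figure D1:**
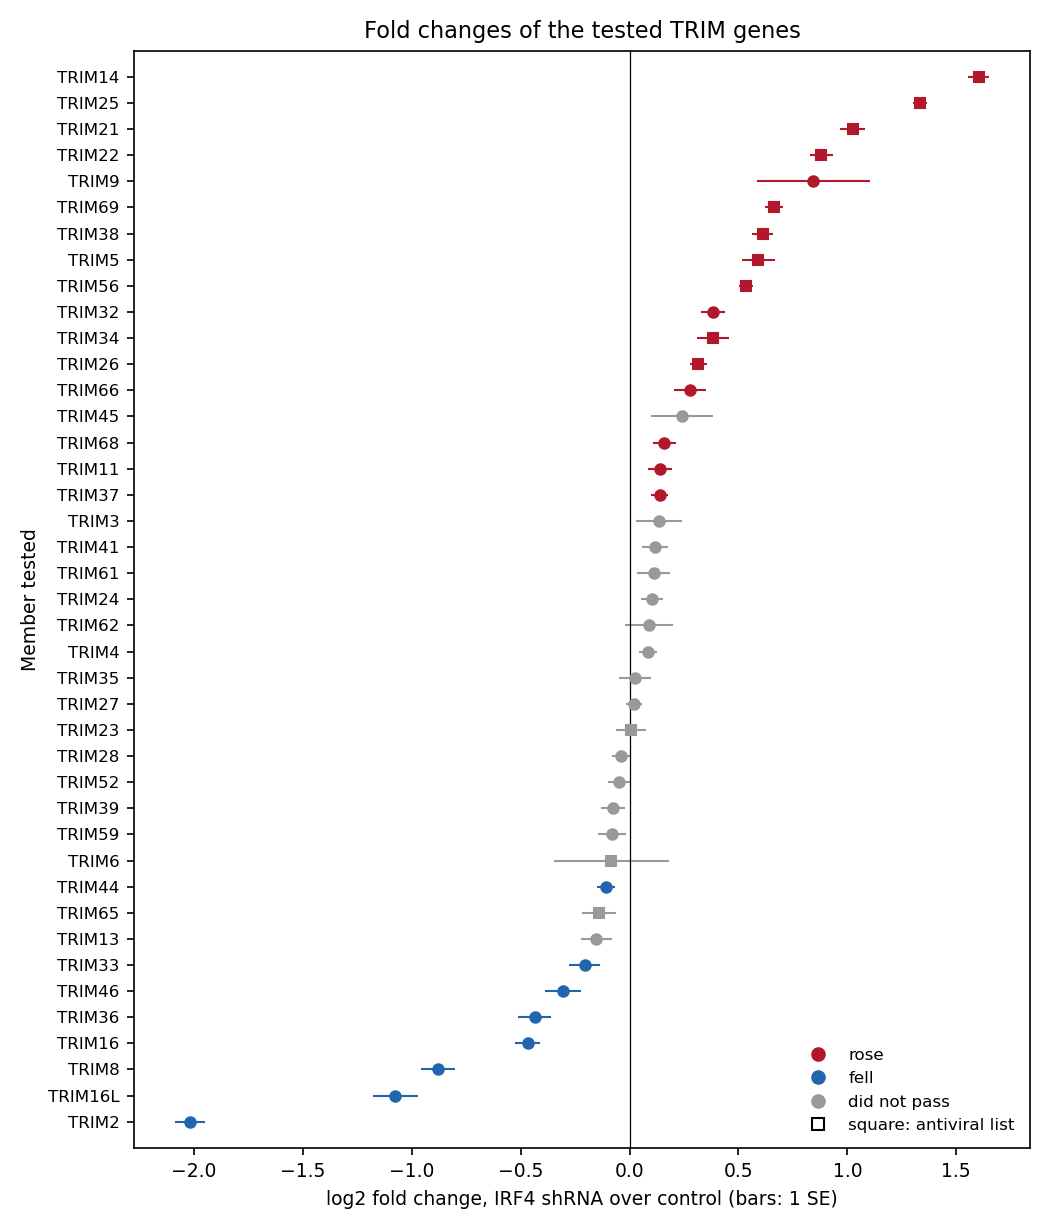
Log2 fold change of IRF4 shRNA over control for each of the 41 tested TRIM genes (horizontal axis, bars 1 SE from edgeR over 12 libraries), sorted, with the antiviral list as squares. Values run from -2.02 for TRIM2 to 1.60 for TRIM14, and 10 of the 13 squares lie among the rises.

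Most members on a list of 14 with known antiviral roles were higher with IRF4 shRNA, where 24.2% of all genes were. The list was chosen with earlier results of these data known, so its share is no test of antiviral members as a class. TRIM15, on that list of 14, was not analysed here, and of the other 13, all tested, 10 rose, 0 fell and 3 did not pass, with a median log2 fold change of 0.59. TRIM14, an adaptor at mitochondria that lacks a RING finger and takes part in signalling from RNA and DNA sensors, rose 3.04-fold. Its levels were 8.83, 9.06 and 9.89 CPM in controls (lowest, median, highest) and 26.7, 27.5 and 29.7 CPM with IRF4 shRNA, so that the groups lay far apart (log2 fold change 1.60, SE 0.05, edgeR adjusted p = 1.54e-12). TRIM25, a ligase for the RNA sensor RIG-I, rose 2.52-fold, from 113, 118 and 123 CPM to 281, 297 and 310 CPM (log2 1.33, SE 0.03, edgeR adjusted p = 1.58e-13). TRIM21, a cytosolic antibody receptor that marks antibody-coated virus for degradation, rose 2.04-fold, from 24.5, 28.4 and 29.9 CPM to 51.8, 57.4 and 58.4 CPM (log2 1.03, SE 0.06, edgeR adjusted p = 1.46e-09). In all 3 genes the lowest IRF4 shRNA library exceeded the highest control by more than the range within either group.

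TRIM22, known to restrict HIV transcription and other viruses and to respond to interferon, had the highest level per exon length of the antiviral list. Its levels were 164, 186 and 197 CPM in controls and 310, 330 and 366 CPM with IRF4 shRNA. The rise was 1.84-fold (182 ± 12.8 to 335 ± 20.1 CPM, SD, n = 6 each), or 0.88 on the log2 scale (SE 0.05; edgeR adjusted p = 2.14e-09). A two-sided exact permutation test of its log2 CPM gave p = 0.00216, the smallest that 6 against 6 can give. TRIM22 occupies bases 5689697 to 5737089 of chromosome 11 (hg38, plus strand), within the span of TRIM5 on the minus strand (5663195 to 5938619). In GENCODE 29 no exon base of either gene is shared with the other.

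Its neighbours on chromosome 11 moved to different extents. TRIM5, which recognises the capsid of incoming retroviruses, rose 1.51-fold, from 36.3, 46.1 and 51.9 CPM to 61.3, 66.0 and 74.9 CPM (log2 0.59, SE 0.08, edgeR adjusted p = 1.11e-05). TRIM34, a close relative of TRIM5 (5619764 to 5644398, plus strand), rose 1.30-fold, from 18.9, 20.5 and 21.9 CPM to 23.2, 27.0 and 29.9 CPM (log2 0.38, SE 0.07, edgeR adjusted p = 0.000497). TRIM6, which makes unanchored ubiquitin chains in interferon signalling (5596109 to 5612958, plus strand), was near the limit of what could be tested, with 112 counts over the 6 controls and 115 over the 6 IRF4 shRNA libraries. Its log2 fold change was -0.08 (SE 0.26, edgeR adjusted p = 0.821). TRIM34 shares 83.0% of its exon bases with the readthrough gene TRIM6-TRIM34, to which 6 counts were assigned in controls and 0 with IRF4 shRNA. With counts summed per group and series, 2 sums against 2, TRIM34 did not pass (adjusted p = 0.0656).

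The remaining antiviral members rose by smaller factors. TRIM69, reported to block vesicular stomatitis virus, rose 1.59-fold (23.1, 25.4 and 26.3 CPM to 38.6, 39.7 and 41.8 CPM; log2 0.66, SE 0.04). TRIM38, a brake on Toll-like receptor and interferon signalling, rose 1.53-fold (124, 142 and 148 CPM to 203, 209 and 219 CPM; log2 0.61, SE 0.05). TRIM56, a ligase with broad antiviral activity, rose 1.45-fold (152, 159 and 165 CPM to 220, 229 and 242 CPM; log2 0.53, SE 0.03). The edgeR adjusted p-values of these 3 were 4.03e-09, 6.28e-08 and 4.53e-09, and none of them overlapped between groups. TRIM26, a ligase linked to turnover of IRF3 and encoded in the major histocompatibility complex region of chromosome 6, rose 1.24-fold (78.5, 85.8 and 92.8 CPM to 103, 107 and 109 CPM; log2 0.32, SE 0.04, edgeR adjusted p = 9.12e-06). TRIM23, which carries an ARF-type GTPase domain, and TRIM65, a ligase for the RNA sensor MDA5, did not pass. TRIM23 stood at 13.9 to 18.4 CPM in controls and 14.97 to 17.5 CPM with IRF4 shRNA (log2 0.01, SE 0.07, edgeR adjusted p = 0.96). TRIM65 stood at 22.7 to 30.2 and 20.2 to 25.2 CPM (log2 -0.14, SE 0.08, adjusted p = 0.156), and passed as lower once the GC trend was removed (-0.16, adjusted p = 0.0282).

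**Figure D2:**
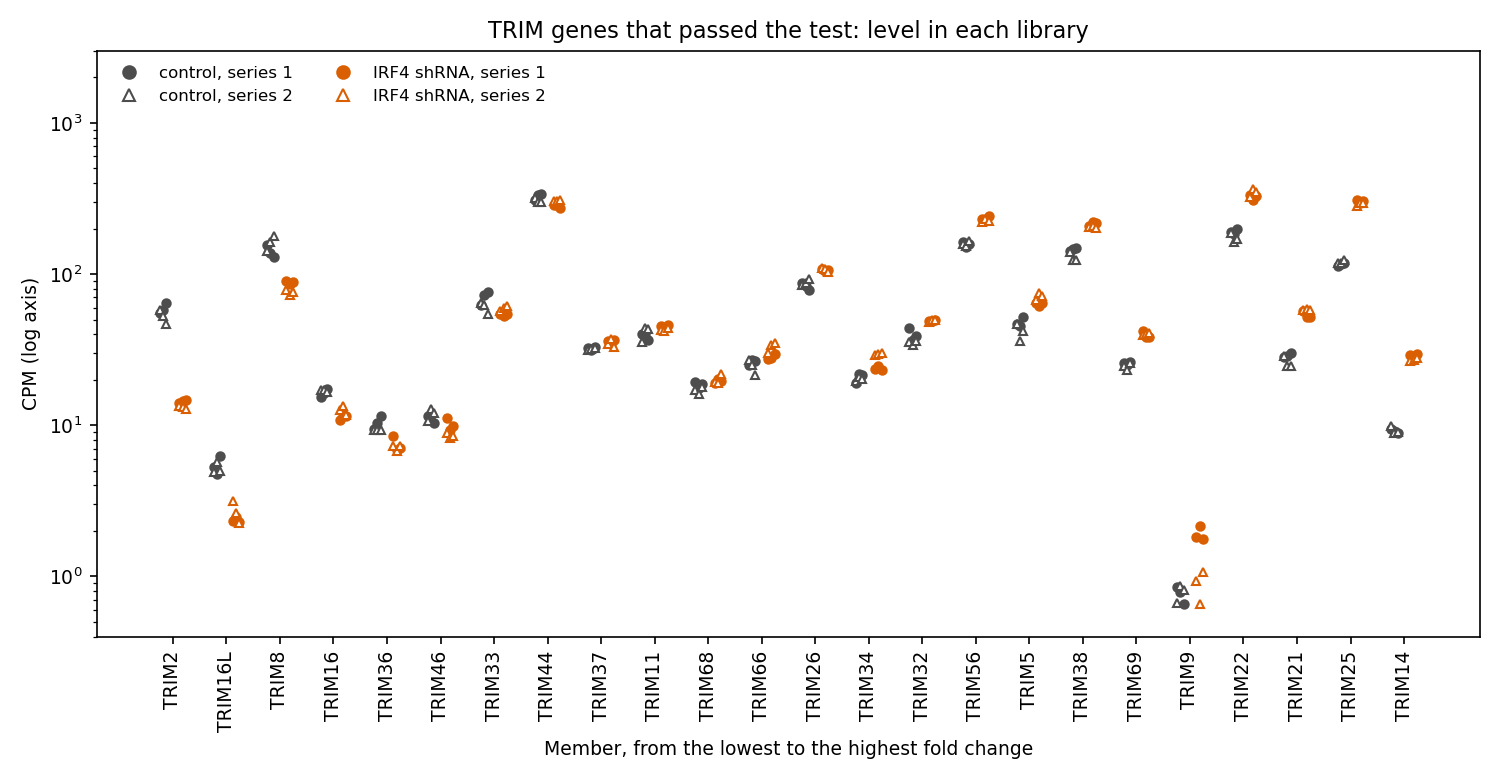
Level in CPM (vertical log axis) of the 24 TRIM genes that passed the test, in each of 6 control (grey) and 6 IRF4 shRNA libraries (orange), with circles for library series 1 and triangles for series 2. The groups stand apart in genes such as TRIM2, TRIM14 and TRIM25 and overlap in 6 genes: TRIM46, TRIM33, TRIM44, TRIM11, TRIM68 and TRIM9.

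Promoter windows are shown for members that moved together. The window ran from 250 bases before to 50 after each RefSeq start site (GRCh38.p14), and 38 of the 51 members had at least 1 window. TRIM22 had none and was not searched, nor were TRIM4, TRIM8, TRIM11, TRIM13, TRIM16L, TRIM24, TRIM27, TRIM28, TRIM29, TRIM35, TRIM45 and TRIM55. The core of the interferon-stimulated response element (ISRE), which several IRF factors bind, was searched on both strands as GAAA, any 2 bases, GAAA. So was the ETS-IRF composite element, at which IRF4 binds with an ETS partner such as SPIB, as GGAA, any 2 bases, GAAA. The same stretch cannot hold both in register on 1 strand, though shifted matches can overlap. The ISRE core was found in 16.1% of the 56 windows of members and in 3.58% of all 35097 windows. By gene, it was found in 6 of the 14 members that rose and had a window (TRIM5, TRIM14, TRIM21, TRIM26, TRIM34 and TRIM69), in 3 of the 6 that fell (TRIM2, TRIM16 and TRIM44) and in 0 of the 10 that were tested and did not pass. Over all tested genes with a window the share was 6.24% of rises, 3.78% of falls and 3.55% of the others. The composite element was found in 3 of 14 members that rose (TRIM25, TRIM34 and TRIM56), 0 of 6 that fell and 0 of the 10 that did not pass. The shares of all tested genes with a window were 4.21% of rises, 3.66% of falls and 3.31% of the others. By window, it was found in 7.14% of those of members and 2.82% of all. Genes with several start sites have more windows, and a match of letters is not a binding site.

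The matches of members that rose are printed to show their letters and flanks, 5′ to 3′ on the strand of the gene with the match in capitals; TTTC in place of GAAA marks a match on the other strand. Likeness within the capitals is set by the search. Positions count from the start site, which is 1, with bases before it negative. In TRIM21 and TRIM26, 2 matches overlap into a longer run. The first 6 lines hold the ISRE core and the lines after them the composite element.
TRIM14 (chr9:98119219-98119268, minus strand, match from -26): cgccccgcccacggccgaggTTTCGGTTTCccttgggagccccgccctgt
TRIM21 (chr11:4393663-4393692, minus strand, match from 18): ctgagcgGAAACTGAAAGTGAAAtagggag
TRIM5 (chr11:5685072-5685121, minus strand, match from -27): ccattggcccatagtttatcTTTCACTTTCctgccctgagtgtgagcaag
TRIM34 (chr11:5624891-5624940, plus strand, match from -90): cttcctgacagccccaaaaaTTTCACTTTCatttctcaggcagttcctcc
TRIM26 (chr6:30213565-30213620, minus strand, match from -194): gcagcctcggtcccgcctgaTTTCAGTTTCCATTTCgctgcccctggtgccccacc
TRIM69 (chr15:44736446-44736495, plus strand, match from -62): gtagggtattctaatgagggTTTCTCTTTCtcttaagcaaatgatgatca
TRIM25 (chr17:56914030-56914072, minus strand, match from -3): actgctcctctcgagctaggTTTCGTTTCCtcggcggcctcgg
TRIM34 (chr11:5624866-5624915, plus strand, match from -115): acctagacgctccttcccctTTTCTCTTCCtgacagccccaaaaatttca
TRIM34 (chr11:5632114-5632163, plus strand, match from -121, of another start site): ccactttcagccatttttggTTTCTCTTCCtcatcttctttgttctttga
TRIM56 (chr7:101085478-101085507, plus strand, match from 8): ttcagttttgTTTCTTTTCCaggcacccag

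For comparison, the ISRE core matches of the members that fell are given in the same way.
TRIM2 (chr4:153151926-153151975, plus strand, match from -217): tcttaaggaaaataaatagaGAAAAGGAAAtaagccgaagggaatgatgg
TRIM16 (chr17:15683002-15683051, minus strand, match from -80): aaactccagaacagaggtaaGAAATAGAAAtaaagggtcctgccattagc
TRIM44 (chr11:35662720-35662769, plus strand, match from -35): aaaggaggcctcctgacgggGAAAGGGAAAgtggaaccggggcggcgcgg
The TRIM5 and TRIM34 matches hold the same 10 letters, TTTCACTTTC, at different distances from the start. The RefSeq start need not be that of the deposited gene: the windows printed for TRIM5, TRIM16, TRIM25, TRIM34 and TRIM69 fall inside the deposited gene's span. The printed TRIM21 window does too, but its match lies after the start site.

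The largest fall of the family was that of TRIM2, an NHL-repeat ligase best known for ubiquitinating neurofilament in neurons (chromosome 4, 153152163 to 153339319). It stood at 46.7, 56.8 and 63.9 CPM in controls and 12.9, 13.7 and 14.7 CPM with IRF4 shRNA. Every IRF4 shRNA library was far below the lowest control, and the mean was 24.7% of the control mean (4.05-fold lower; log2 -2.02, SE 0.07, edgeR adjusted p = 5.4e-12). The other NHL members did not share this fall. TRIM32, a ligase mutated in a limb-girdle muscular dystrophy, rose 1.31-fold, from 33.9, 36.4 and 44.3 CPM to 48.2, 49.1 and 49.9 CPM (log2 0.38, SE 0.06, edgeR adjusted p = 3.8e-05). TRIM3 stood at 5.79 to 8.15 CPM and 6.25 to 8.57 CPM and did not pass (log2 0.14, SE 0.11, edgeR adjusted p = 0.317). TRIM71, a stem cell regulator, had 26 counts over the controls and 24 over the IRF4 shRNA libraries and was under the count filter.

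TRIM8, a ligase that promotes NF-kB signalling, fell 1.84-fold, from 129, 148 and 177 CPM to 72.3, 82.4 and 90.4 CPM (log2 -0.88, SE 0.08, edgeR adjusted p = 2.25e-07). TRIM16, which lacks a RING finger and takes part in the clearance of damaged lysosomes, fell 1.38-fold, from 15.4, 16.7 and 17.5 CPM to 10.9, 11.8 and 13.5 CPM (log2 -0.47, SE 0.06, edgeR adjusted p = 8.88e-06). Its shorter paralog TRIM16L fell 2.11-fold, from 4.75, 5.12 and 6.28 CPM to 2.26, 2.40 and 3.16 CPM (log2 -1.07, SE 0.10, edgeR adjusted p = 6.11e-07). All 3 genes were lower in each IRF4 shRNA library than in any control. For TRIM16, TRIM16L, TRIM2, TRIM5, TRIM13 and TRIM59, 0 of 12 deposited values lay within 0.01 of a whole number, and for TRIM22, TRIM26, TRIM27, TRIM28, TRIM52 and TRIM73 only 2 of 12 did. The number was 5 of 12 for TRIM8, TRIM25 and TRIM44, and 7 for TRIM56 and TRIM6-TRIM34. It was 8 for TRIM6, TRIM34, TRIM41 and TRIM61, 9 for TRIM33 and TRIM74, and 10 for TRIM39. How reads that fit several genes were divided is not stated, so the sizes of changes in all these genes are uncertain to an unknown extent.

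Members of the classes best known from neurons and muscle, which bind microtubules or the sarcomere through a COS box, were low but 3 could be tested. TRIM36 fell 1.35-fold, from 9.23, 9.42 and 11.4 CPM to 6.80, 7.17 and 8.54 CPM (log2 -0.43, SE 0.08, edgeR adjusted p = 0.000233). TRIM46, an organiser of axonal microtubules, fell 1.23-fold with overlapping groups, from 10.3, 11.7 and 12.8 CPM to 8.27, 9.07 and 11.2 CPM (log2 -0.31, SE 0.08, edgeR adjusted p = 0.00581). It did not pass with counts summed per group and series (adjusted p = 0.131). TRIM9, a brain ligase, rose from 0.654, 0.800 and 0.858 CPM to 0.653, 1.42 and 2.15 CPM, with 154 and 295 counts in all (log2 0.84, SE 0.26, edgeR adjusted p = 0.0148; 0.166 with summed counts). Its 3 IRF4 shRNA libraries of series 1 were high and those of series 2 overlapped the controls.

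The chromatin members of the TIF1 class held the most abundant gene of the family and moved little. TRIM28 (KAP1), the corepressor recruited by KRAB zinc finger proteins, stood at 1095, 1170 and 1339 CPM in controls and 1120, 1154 and 1196 CPM with IRF4 shRNA, and did not pass (log2 -0.04, SE 0.04, edgeR adjusted p = 0.474). Scaling by library size alone turned its sign (0.035), as did leaving out control replicates 5 and 6 (0.017). TRIM24, a coregulator of nuclear receptors, stood at 32.6 to 39.4 CPM and 37.0 to 41.3 CPM (log2 0.10, SE 0.05, edgeR adjusted p = 0.116). It passed as higher with library size alone (adjusted p = 0.0121), with the GC trend removed (0.0222) and without control replicate 3. TRIM66, which lacks a RING finger, rose 1.21-fold, from 21.4, 25.9 and 27.0 CPM to 27.6, 29.98 and 35.1 CPM (log2 0.28, SE 0.07, edgeR adjusted p = 0.00537; 0.101 with summed counts).

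TRIM33 and 3 other members with small changes sat near the threshold. TRIM33, a ligase that acts on SMAD4, was 1.15-fold lower, from 54.3, 63.5 and 75.8 CPM to 52.4, 55.9 and 61.2 CPM (log2 -0.21, SE 0.07, edgeR adjusted p = 0.0257). TRIM44, which lacks a RING finger, was 1.08-fold lower, from 300, 313 and 339 CPM to 272, 296 and 308 CPM (log2 -0.11, SE 0.04, edgeR adjusted p = 0.0452). TRIM11 was 1.10-fold higher (35.5, 40.0 and 43.8 CPM to 41.8, 43.6 and 45.9 CPM; log2 0.14, SE 0.05, adjusted p = 0.0455) and TRIM68 1.12-fold higher (16.2, 17.8 and 19.2 CPM to 19.0, 19.5 and 21.9 CPM; log2 0.16, SE 0.05, adjusted p = 0.0241). In each of these 4 the groups overlapped, and the call was lost in several settings. TRIM33 did not pass without control replicate 2 or 3, without IRF4 shRNA replicate 1, 2 or 3, or with library size alone (adjusted p over all settings 0.00136 to 0.223). TRIM44 did not pass without control replicate 2, 3 or 4 or without any single IRF4 shRNA replicate (0.00877 to 0.54 over all settings). TRIM11 lost its call without control replicate 1, 2, 3 or 4 or IRF4 shRNA replicate 1, 2, 3 or 6 (0.00198 to 0.232), and TRIM68 without control replicate 4 or 5 (0.00245 to 0.249). TRIM37, a ligase of peroxisomes and centrosomes, was also 1.10-fold higher, but with groups that did not overlap (31.4, 32.2 and 33.0 CPM to 33.1, 35.4 and 37.1 CPM; log2 0.14, SE 0.04, adjusted p = 0.00708). Its call was lost with summed counts (adjusted p = 0.218).

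The other 11 tested members that did not pass were TRIM4, TRIM13, TRIM27, TRIM35, TRIM39, TRIM41, TRIM45, TRIM52, TRIM59, TRIM61 and TRIM62, with log2 fold changes from -0.15 (TRIM13) to 0.24 (TRIM45) and SEs from 0.04 to 0.14. TRIM27, a nuclear ligase first found as a fusion partner of RET, was steady at 92.4 to 101 CPM in controls and 91.9 to 103 CPM with IRF4 shRNA (log2 0.02, SE 0.04, edgeR adjusted p = 0.663). It passed as higher with library size alone (adjusted p = 0.0368). TRIM13, a ligase anchored in the endoplasmic reticulum, stood at 28.5 to 39.2 CPM and 28.8 to 33.2 CPM (log2 -0.15, SE 0.07, edgeR adjusted p = 0.0885). It passed as lower with the GC trend removed (adjusted p = 0.0192), without control replicate 5 or 6 and without both (0.000663). TRIM4 passed as higher with library size alone or the GC trend removed, TRIM41 as higher and TRIM52 and TRIM59 as lower without control replicates 5 and 6, TRIM41 also with library size alone or without IRF4 shRNA replicate 5, and TRIM45 as higher without IRF4 shRNA replicate 1. TRIM59 shares 19.8% of its exon bases with SMC4 on the other strand and TRIM52 28.5% with a gene on the other strand, so their reads cannot be told apart if strand was not counted. Among members that passed, TRIM8 shares 14.1% and TRIM37 11.1% with genes on the other strand. Smaller shares on the other strand are those of TRIM14 (7.72%), TRIM25 (6.50%), TRIM16 (6.33%), TRIM11 (5.65%), TRIM38 (2.90%) and TRIM66 (0.80%). TRIM16 shares 23.5% and TRIM22 10.7% with a gene on the same strand.

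The 10 members under the count filter had between 1 and 111 counts over all 12 libraries. They were TRIM7, TRIM29, TRIM47, TRIM55, TRIM67, TRIM71, TRIM72, TRIM73, TRIM74 and the readthrough gene TRIM6-TRIM34. The most counted were TRIM72, a membrane repair protein of muscle with 32 counts in controls and 79 with IRF4 shRNA, and TRIM73, with 25 and 64, which has a near-identical copy in TRIM74. With no filter both passed as higher, TRIM72 by 1.18 on the log2 scale (SE 0.35; edgeR adjusted p = 0.0151) and TRIM73 by 1.25 (SE 0.42; edgeR adjusted p = 0.0301), and so they did by DESeq2 (adjusted p = 0.0158 and 0.029). The other 8 passed in neither. TRIM29 and TRIM67 had 2 and 1 counts in controls and 0 with IRF4 shRNA, which is under the limit of 3 counts in a library (0.0763 to 0.0981 CPM) and shows no difference at this depth.

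Levels per exon length ordered the family differently in the 2 groups. In controls TRIM28 led with 296 ± 21.4 CPM per kb of exon, followed by TRIM22 (30.3 ± 2.13), TRIM44 (24.2 ± 1.28), TRIM26 (19.6 ± 1.11) and TRIM8 (15.8 ± 1.88 CPM per kb, SD, n = 6). Below them TRIM38, TRIM21, TRIM56 and TRIM52 stood between 13.8 and 14.6 CPM per kb and lay within their spread of each other. With IRF4 shRNA TRIM28 (288 ± 7.32 CPM per kb) and TRIM22 (55.7 ± 3.34 CPM per kb) kept ranks 1 and 2. TRIM25 went from rank 10 (12.4 ± 0.358 CPM per kb) to rank 3 (31.2 ± 1.03), and TRIM21 from rank 7 (14.2 ± 1.17) to rank 4 (28.96 ± 1.62 CPM per kb). Lengths are unions of GENCODE 29 exons, and the annotation behind the counts is not stated in the labels.

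**Figure D3:**
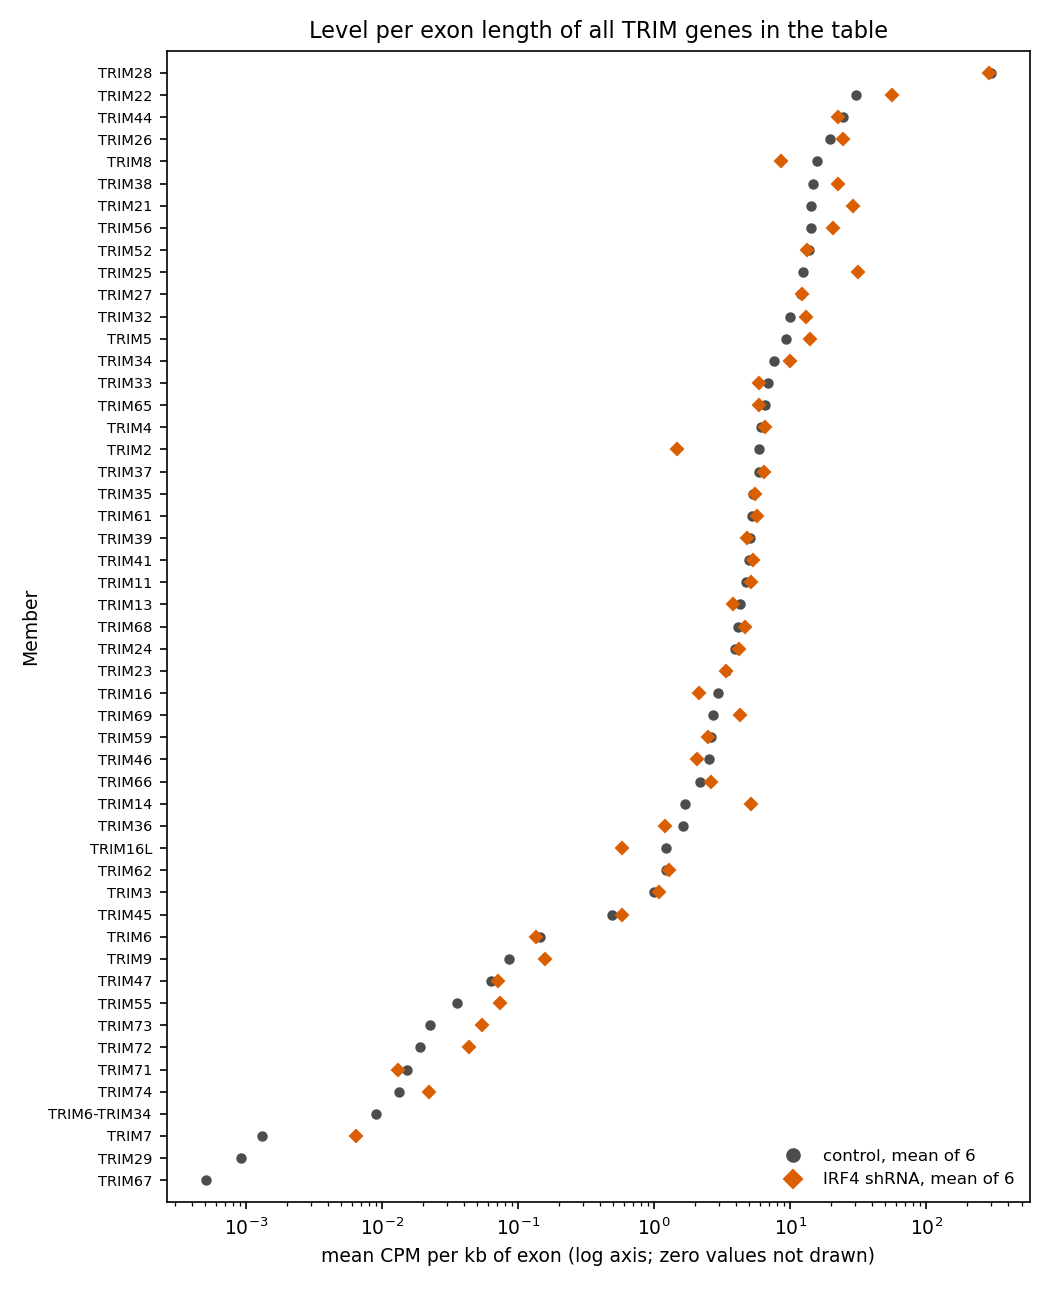
Mean level of the 51 TRIM genes in CPM per kb of exon (horizontal log axis) in 6 control (circles) and 6 IRF4 shRNA libraries (diamonds), ordered by the control level. TRIM28 at 296 CPM per kb stands apart from TRIM22 at 30.3, and the members under the count filter lie under 0.1 CPM per kb.

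Within the library series, 15 of 41 tested members rose and 9 fell in series 1 (25.8% and 24.6% of all genes), and 13 rose and 6 fell in series 2 (20.2% and 17.9%). IRF4 itself was at 34.7% of control in series 1 and 47.9% in series 2 (interaction log2 0.46, edgeR adjusted p = 0.00106). Groups within a series did not overlap in 27 members of series 1 (58.2% of all genes; 17 higher, 29.9%, and 10 lower, 28.3%) and 22 of series 2 (50.3%; 16 higher, 26%, and 6 lower, 24.3%). In both series 11 members rose (14.4% of all genes) and 5 fell (12.4%). Those that rose were TRIM5, TRIM14, TRIM21, TRIM22, TRIM25, TRIM26, TRIM32, TRIM34, TRIM38, TRIM56 and TRIM69, which are 10 antiviral members and TRIM32. The 5 that fell were TRIM2, TRIM8, TRIM16, TRIM16L and TRIM36. TRIM22 rose 1.70-fold in series 1 (190, 184 and 197 CPM to 332, 310 and 328 CPM) and 1.998-fold in series 2 (188, 164 and 170 CPM to 325, 366 and 351 CPM), with an exact permutation p of 0.1 in each, the smallest p that 3 libraries against 3 allow. The difference between series did not pass (interaction log2 0.23, edgeR adjusted p = 0.0624).

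**Figure D4:**
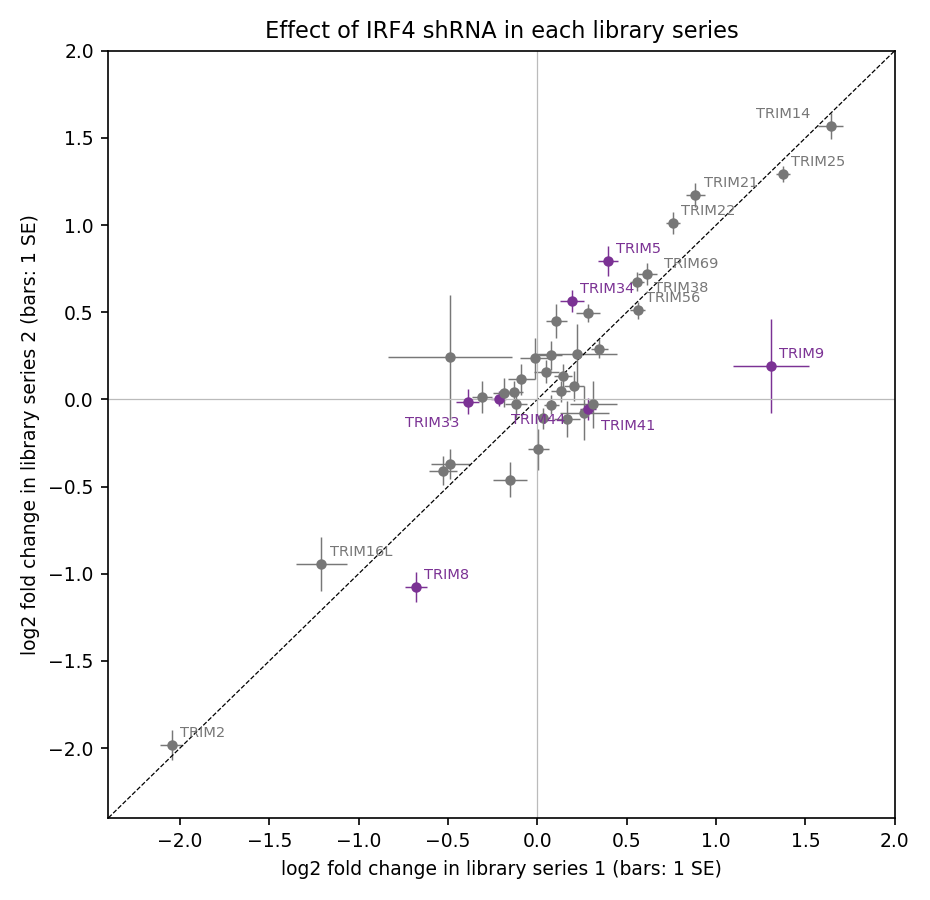
Log2 fold change of IRF4 shRNA over control in library series 1 (horizontal) and series 2 (vertical) for the 41 tested TRIM genes, bars 1 SE, dashed line where both are equal. The genes whose interaction with series passed are purple; TRIM14, TRIM25 and TRIM2 lie near the line, and TRIM9 lies far from it.

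The effect of IRF4 shRNA differed between the series in 7 of 43 members tested for the interaction (16.3%), 4 with a higher and 3 with a lower effect in series 2, against 13% of all genes (5.03% and 7.99%). TRIM9 was at 0.852, 0.787 and 0.654 CPM in series 1 controls and 1.82, 2.15 and 1.77 CPM with IRF4 shRNA, but at 0.668, 0.858 and 0.813 against 0.930, 1.07 and 0.653 CPM in series 2 (interaction log2 -1.14, edgeR adjusted p = 0.0368). TRIM41, a ligase for protein kinase C, was higher with IRF4 shRNA in series 1 (62.7, 59.9 and 59.1 CPM to 74.2, 75.1 and 73.1 CPM) and not in series 2 (61.6, 67.2 and 68.1 CPM to 64.4, 63.8 and 60.0 CPM; interaction -0.36, edgeR adjusted p = 0.0136). TRIM34 rose more in series 2, where IRF4 shRNA libraries were at 29.3 to 29.9 CPM, than in series 1, where they were at 23.2 to 24.8 CPM (0.35, adjusted p = 0.0256). TRIM5 did likewise (0.38, adjusted p = 0.0349).

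TRIM33 and TRIM44 were lower in series 1 alone (log2 -0.39 and -0.22, against -0.01 and 0.01 in series 2; interaction 0.35 and 0.20, edgeR adjusted p = 0.0363 and 0.0393). TRIM8 fell in both series, by 0.68 and 1.08 on the log2 scale (interaction -0.42, edgeR adjusted p = 0.032), and this difference became 0.014 with the GC trend removed (adjusted p = 0.915). TRIM8 has a transcript GC content of 61.1%, above that of every tested member but TRIM28 and TRIM46. Only TRIM41 kept its interaction call without each library in turn (adjusted p 0.00018 to 0.0439) and with the GC trend removed (0.00374). For the other 6 the calls were lost on leaving out any of control replicates 2, 3 and 6 or IRF4 shRNA replicates 1, 3, 5 and 6, and in most of them on leaving out control replicate 5 or IRF4 shRNA replicate 2. Without control replicate 4, 18 members passed, 10 higher and 8 lower.

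Genes that work with TRIM proteins are given beside the 24.2% of all genes that rose and the 23.9% that fell. PML, the TRIM protein that scaffolds nuclear bodies and is named outside the TRIM numbering, rose 2.25-fold, from 47.2, 52.2 and 66.2 CPM to 110, 121 and 141 CPM (log2 1.17, SE 0.09). It was the only testable of 6 relatives listed. Of 14 E2 enzymes 2 rose, 3 fell and 9 did not pass, with a median log2 fold change of -0.05, so neither count was above those shares. UBE2L6, which also conjugates the ubiquitin-like ISG15, rose 1.71-fold (81.9, 89.3 and 95.2 CPM to 141, 149 and 170 CPM). UBE2E2 fell 1.32-fold (13.9, 14.6 and 15.8 CPM to 10.3, 10.9 and 12.8 CPM), UBE2W 1.26-fold (35.8, 46.6 and 52.99 CPM to 32.0, 36.9 and 39.0 CPM) and UBE2E1 1.14-fold. The last 2 did not pass with summed counts, nor UBE2E1 with library size alone. Of 13 sensing partners tested 6 rose, 1 fell and 6 did not pass, with a median of 0.10. IFIH1, which encodes MDA5, rose 3.18-fold (18.6, 21.5 and 23.2 CPM to 64.6, 67.9 and 73.5 CPM) and DDX58, which encodes RIG-I, 2.95-fold (22.4, 24.2 and 26.6 CPM to 64.9, 73.5 and 75.2 CPM). ISG15 rose 13.3-fold (12.3 ± 4.98 to 164 ± 36.0 CPM, SD, n = 6 each), and ZC3HAV1, an antiviral RNA-binding protein that works with TRIM25, rose 1.39-fold (109 ± 8.23 to 152 ± 4.78 CPM).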

How the data were processed

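Poly(A) RNA was sequenced as stranded, paired-end libraries, per the labels' protocols. STAR, HTSeq and hg38 are named in the submitters' processing notes. The deposited table holds estimated counts per gene, not normalized by the authors, of which 66.6% were whole at a tolerance of 1e-06. The step that made fractions, the annotation and the strand setting are not stated in the labels or files. Counts were rounded and tested with edgeR 4.0.16 in R 4.3.3 (quasi-likelihood test, TMM, filterByExpr with a minimum count of 10) over 16437 genes, with Benjamini-Hochberg adjustment over all of them and a threshold of 0.05. CPM used TMM-scaled library sizes. SEs were taken as the log2 value over the square root of the F statistic. Positive values are higher with IRF4 shRNA, or, for the interaction, higher in series 2. Gene ends were reduced by 1 base from the deposited table. No pair of libraries in a group was alike within sampling noise (chi-square 2.73 to 44.8 per degree of freedom), so each counted as 1 sample. IRF4 shRNA pairs were closer within a series (2.73 to 3.46) than between series (11.1 to 16.6). The controls did not follow the series in this way. Control replicate 4 was closer to replicates 2 and 3 of series 1 (3.30 and 3.87) than to replicates 5 and 6 of its own series (21.2 and 31.9).

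Simulated counts were run over 16255 genes, of which only a small set was shifted, whereas 48.2% of genes were called in the data. The rates found on them therefore do not carry over to these data. On these counts the comparison of all libraries found 60.6% of genes shifted by 0.5 log2 units and 81.6% of those shifted by 1. Of its calls, 5.41% were false. Series 1 alone found 27.3% and 65.7% (5.15% of calls false), and series 2 alone 27% and 63.6% (7.22% false). The interaction test found 15% and 50%, and 9.72% of its calls were false. The simulated spread came from a fit without library series, and no series effect was put in. The rates for single series and for the interaction therefore do not describe those tests as run. Members, lists and tests were chosen with earlier results of these data known. Named with values were TRIM22, the antiviral, TIF1 and NHL members, the 10 largest rises and falls at a mean of at least 1 CPM, the 3 highest levels per exon length, the 5 smallest interaction p-values and up to 4 genes per list outside the family. The other members with values were named to account for all. Alternatives were DESeq2 1.42.0 (its size factors and its Wald test), library size alone, other filters, GC trend removal, series or replicate as a term, summed counts and leaving out libraries.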

Additional observations from a re-analysis of the deposited data

Results flagged for a closer look

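Several TRIM genes and the target were marked because the effect of IRF4 shRNA differed between library series 1 and 2 by edgeR's test of the interaction (series 2 minus series 1, log2). The values were 0.46 for IRF4 (adjusted p = 0.00106), 0.38 for TRIM5, 0.35 for TRIM34, 0.35 for TRIM33 and 0.20 for TRIM44. They were -0.36 for TRIM41, -0.42 for TRIM8 and -1.14 for TRIM9. Counts of interaction calls rest on single libraries, as given with the series.

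In 2 of 102 groups examined, 1 library lay far from the other 5, against about 1 in 20 by chance. For TRIM36, IRF4 shRNA replicate 1 was at 8.54 CPM, with the next library at 7.30 CPM. For UBE2E1, IRF4 shRNA replicate 4 was at 45.9 CPM, with the next at 47.9 CPM.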

How the results depend on the processing

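The counts of 16 rises and 8 falls were 14 to 17 and 6 to 9 without each library in turn, 18 and 10 with the GC trend removed, 20 and 6 when scaled by library size only, 16 and 11 without control replicates 5 and 6, and 11 and 5 with counts summed per group and series. With the replicate number of the titles as a block they were 14 and 6, as with the number of the library names. Same-numbered libraries did not deviate together (r from -0.26 to 0.13 over genes, and 0 of 12 libraries correlated best with their own number), so the numbers were not taken as pairs. Within series the counts without each library were 13 to 17 and 8 to 10 in series 1 and 12 to 14 and 5 to 8 in series 2. Interaction counts of 4 higher and 3 lower became 2 and 1 with the GC trend removed, and 0 to 10 and 1 to 8 without each library. With the GC trend removed the 4 higher members all lost their calls, so the 2 were other members, and the 1 lower was TRIM41. The cause was not tested. Signs turned for members that had not passed: TRIM6 (-0.22 to 0.056 without each library), TRIM23 (-0.036 to 0.044 without each library, -0.0027 at a mean of at least 1 CPM, -0.076 without control replicates 5 and 6), TRIM28 (0.017 without control replicates 5 and 6, 0.035 with library size alone), TRIM35 (-0.0014 to 0.078 without each library), TRIM52 (0.025 with library size alone) and TRIM59 (0.0025 with the GC trend removed). The TRIM8 interaction turned to 0.014 with the GC trend removed. Library size alone moved the median of all genes to 0.07. With no filter and by DESeq2 the counts were 18 and 7, with TRIM72 and TRIM73 among the rises.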
